A study of Mus musculus with 6 samples.

Results

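H/ACA box small nucleolar RNAs (Snora genes) and Cajal body RNAs (Scarna genes) were followed in mouse neuroblastoma cells before and after 96 h of differentiation. The class was chosen with earlier results of these data known. Its members were taken by name, as every row of the deposited count table whose gene symbol starts with Snora or Scarna. There were 49 of them among 40413 rows, 40 Snora and 9 Scarna, and 27 reached 10 counts in at least 3 libraries (23 Snora and 4 Scarna).

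The cells were N2A-A5, which the labels call acceptor cells, derived from Neuro-2a (N2A), a mouse neuroblastoma line. The 3 libraries at 0 h came from undifferentiated cells in DMEM with 10% fetal bovine serum, penicillin and streptomycin, pyruvate and 10 µg/mL blasticidin, with no retinoic acid. The 3 libraries at 96 h came from cells kept in differentiation medium with 10 µM retinoic acid, 1% fetal bovine serum and no blasticidin. Time, serum, retinoic acid and blasticidin changed together and cannot be told apart. Each time has 3 biological replicates according to the series' design, and nothing says whether these were separate cultures, so the p-values measure the spread between these libraries. The comparison asks how the transcriptome of the line differs between the undifferentiated and the differentiated state.

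As background, an H/ACA RNA folds into hairpins joined by a hinge and ends in a short tail with the sequence ACA. Its hairpins hold pockets that pair with a target RNA and place a uridine for conversion to pseudouridine by dyskerin, which works together with Nhp2, Nop10 and Gar1. Snora RNAs mostly guide ribosomal RNA in the nucleolus, whereas Scarna RNAs work on spliceosomal RNAs in Cajal bodies. Most are cut out of introns of other genes, called host genes. The Scarna group is mixed: Scarna13 is of the H/ACA kind, Scarna2 and Scarna9 are of the C/D box kind, which guides ribose methylation, and Scarna6 and Scarna10 combine both.

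The sequences shown here, from GENCODE M21 (GRCm38), are of some of the RNAs to which the results return, chosen after their values were seen. They are a near-identical pair with a falling host (Snora73a and Snora73b), an abundant Snora (Snora16a), a member that shared much of its rise with its host (Snora26), the member with the largest fold change (Snora33) and the member with the most counts (Scarna13). Capitals mark the ACA box.
Snora73a: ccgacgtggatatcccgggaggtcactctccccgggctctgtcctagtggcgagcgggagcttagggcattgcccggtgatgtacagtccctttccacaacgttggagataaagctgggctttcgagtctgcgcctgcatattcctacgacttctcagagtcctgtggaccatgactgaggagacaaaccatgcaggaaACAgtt
Snora73b: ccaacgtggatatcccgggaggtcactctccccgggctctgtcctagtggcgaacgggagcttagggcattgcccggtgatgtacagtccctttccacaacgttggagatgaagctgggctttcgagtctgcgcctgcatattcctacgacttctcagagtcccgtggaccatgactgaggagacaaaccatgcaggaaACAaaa
Snora16a: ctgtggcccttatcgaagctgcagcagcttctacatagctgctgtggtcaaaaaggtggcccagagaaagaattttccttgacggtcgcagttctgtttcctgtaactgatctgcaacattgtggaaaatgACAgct
Snora26: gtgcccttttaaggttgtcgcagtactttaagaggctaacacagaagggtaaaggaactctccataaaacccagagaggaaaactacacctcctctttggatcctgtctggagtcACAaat
Snora33: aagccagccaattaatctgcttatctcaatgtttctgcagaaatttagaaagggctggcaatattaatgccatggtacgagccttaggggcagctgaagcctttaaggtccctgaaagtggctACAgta
Scarna13: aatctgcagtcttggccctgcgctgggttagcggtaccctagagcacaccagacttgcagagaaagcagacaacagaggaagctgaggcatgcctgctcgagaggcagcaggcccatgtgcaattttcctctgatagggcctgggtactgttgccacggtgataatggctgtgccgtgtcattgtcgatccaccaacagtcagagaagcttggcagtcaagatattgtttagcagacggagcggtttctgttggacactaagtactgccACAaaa

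In each of these 6 sequences the letters ACA stood 3 bases before the 3′ end. The same was found on the sense strand of 35 of 42 Snora sequences and 2 of 9 Scarna sequences. Among those that lacked it were Snora17, Snora44, Snora74a, Scarna2, Scarna3a and Scarna6, described below but not shown. None of 98 C/D box (Snord) sequences had it, and 2.26% of 140209 other transcripts did. Snora73a and Snora73b were both 205 bases long, with 7 differing positions and 96.6% identity. The 51 member sequences ran from 70 to 414 bases, with a median of 133.

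Libraries held 16.8 M to 20.9 M counts (M for mega), and levels are given as CPM on library sizes scaled with TMM factors. The makeup of the libraries moved with the groups. The predicted gene Gm26917 accounted for 20.2% of all counts before and 30.5% after differentiation, small nuclear RNA genes took 0.0605% and 0.242%, and protein-coding genes took 66.3% and 51.2%. Markers of sympathetic neuroblasts were detected (11 of 11 tested), with a summed level of 1819 to 1925 CPM at 0 h and 2068 to 2239 CPM at 96 h. Of the 11, 3 were higher at 96 h, 6 lower (among them Phox2a, Mycn and Chga) and 2 did not pass. Without Prph, the peripherin gene, the sum ran from 1272 to 1349 CPM at 0 h and from 1069 to 1145 CPM at 96 h. Summed levels of other cell types were lower at both times: the 5 fibroblast markers ran from 4.28 to 4.76 CPM and from 10.5 to 12.2 CPM (Lum at 0, Dcn and Pdgfra higher at 96 h), the 5 Schwann cell markers from 0.686 to 1.08 CPM and from 1.27 to 2.86 CPM, and the 5 macrophage markers from 0.826 to 1.71 CPM and from 1.13 to 2.92 CPM (Aif1 at 0). The part of these shifts in the results was not tested. In bulk RNA, fewer cells of a type and less RNA per cell cannot be told apart.

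Every tested H/ACA and Cajal body RNA was higher at 96 h. In edgeR's quasi-likelihood test with Benjamini-Hochberg adjustment over all 13705 genes, 27 of 27 rose and 0 fell, with log2 fold changes from 1.05 to 4.95 and a median of 2.78 (6.85-fold). The largest adjusted p was 0.0234, for Scarna2. Over all tested genes, 28.7% were called higher, 28.8% lower and 57.4% in either direction, and the median log2 fold change was 0.03. A rise of at least 4-fold was seen in 25 members, against 4.19% of all genes. The 3 libraries at 96 h lay above the 3 at 0 h in all 27, which held for 32.4% of all genes.

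The filter on low counts bears on that count, since 11 of the 27 members reached 10 counts in all libraries at 96 h but not at 0 h. The filter let these 11 in through their 96 h libraries, which favours a difference. The other 16 had at least 10 counts in each 0 h library: 16 of 16 rose, with log2 fold changes from 1.05 to 3.13 and a median of 2.63. Among all genes with that many counts at 0 h, 26.7% were called higher. With no filter at all, 34 members were called higher in edgeR, against 15.4% of the genes then tested. Of the 22 members not tested, 4 had 0 counts in all 6 libraries (Snora19, Snora35, Snora36b and Snora47), which allows up to 3 counts over each group. The remaining 18 had counts too low to test, and 17 of them had a higher mean level at 96 h. The exception was Scarna9, with 1 count, at 0 h.

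**Figure D1:**
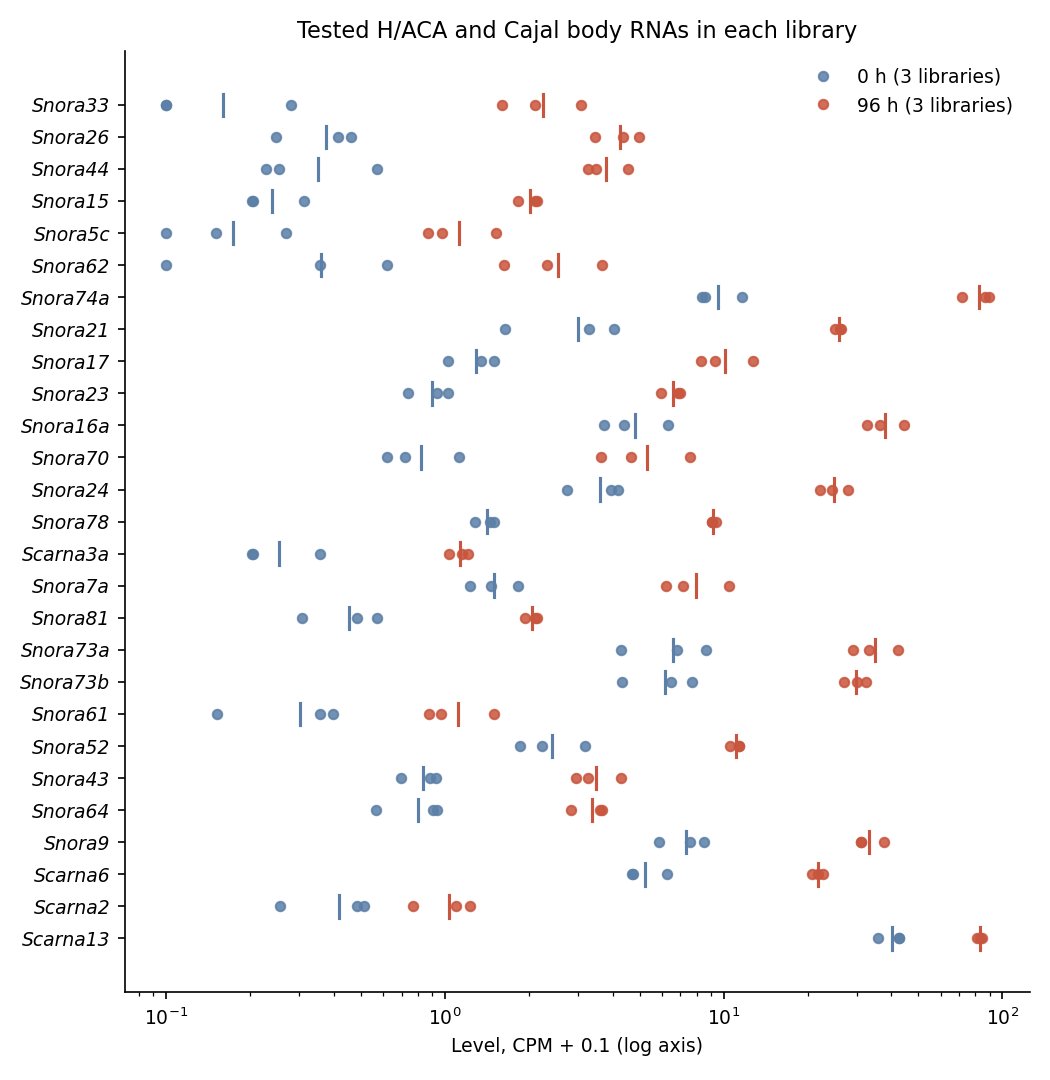
Level of each of the 27 tested RNAs in each library, as CPM plus 0.1 on a log axis, ordered by log2 fold change from the largest at the top. Points are libraries (3 at 0 h, 3 at 96 h) and vertical ticks are group means. In every row the 96 h points lie to the right of the 0 h points, with the smallest gap for Scarna13 and Scarna2 at the bottom.

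The summed level of all 49 rows was 87.0, 95.5 and 110 CPM at 0 h and 447, 497 and 422 CPM at 96 h, a 4.67-fold difference of the means. The 40 Snora rows summed to 39.2, 54.6 and 61.0 CPM at 0 h and 340, 387 and 317 CPM at 96 h (6.75-fold). The 9 Scarna rows summed to 47.8, 40.9 and 49.4 CPM at 0 h and 108, 110 and 105 CPM at 96 h (2.34-fold). The groups did not overlap for any of these sums. Scarna rows held 0.927 ± 0.256 times the counts of Snora rows at 0 h and 0.311 ± 0.023 times at 96 h (mean ± SD, n = 3 libraries each). Those ratios did not overlap, with p = 0.1 in an exact two-sided permutation test, the smallest p that 3 libraries against 3 can give. Among all counts, members took 0.0106% ± 0.0010 at 0 h and 0.0416% ± 0.0027 at 96 h (3.92-fold).

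**Figure D2:**
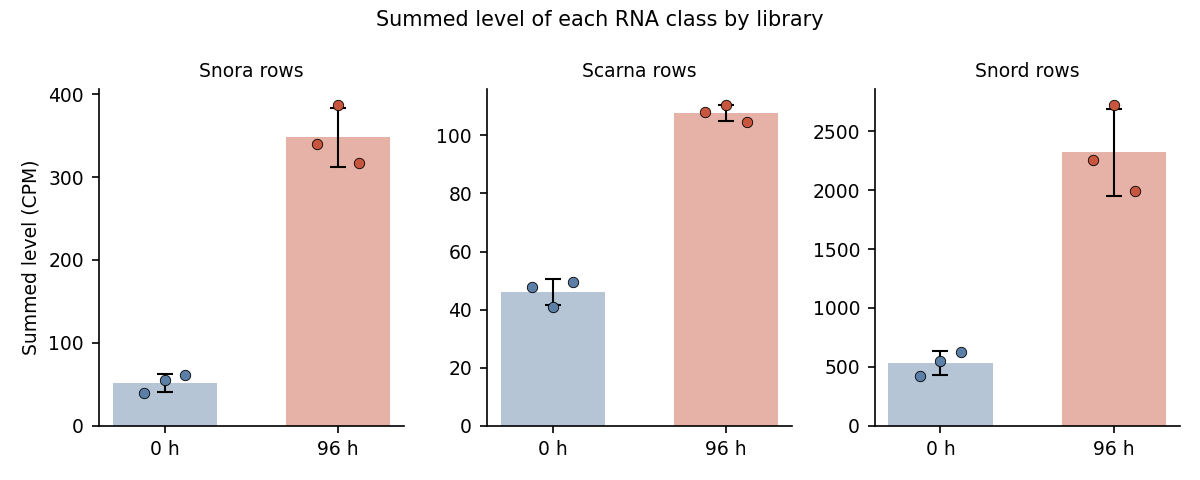
Summed level in CPM of the Snora, Scarna and C/D box (Snord) rows at 0 h and 96 h. Bars are means, error bars are SD over 3 libraries and points are libraries; each panel has its own axis from 0. All 96 h libraries lie above all 0 h libraries, by 6.75-fold for Snora, 2.34-fold for Scarna and 4.38-fold for Snord rows.

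Scarna13, also known as U93, had the highest mean CPM of all members and the smallest log2 fold change among those tested. It stood at 42.3, 35.6 and 42.6 CPM at 0 h and 83.0, 84.4 and 81.0 CPM at 96 h, with a log2 fold change of 1.05 ± 0.07 (SE here and below; edgeR adjusted p = 3.19e-08). Its libraries were close within each time and far apart between them. Per kilobase of its length, its level was 146 CPM at 0 h and 301 CPM at 96 h. It alone carried much of the Scarna sum, and without it the member share of counts differed 5.45-fold rather than 3.92-fold, an alternative added after the data were seen.

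Scarna6 was next among Cajal body RNAs. It stood at 4.60, 4.64 and 6.16 CPM at 0 h and 21.6, 22.7 and 20.7 CPM at 96 h, a log2 fold change of 2.08 ± 0.13 (edgeR adjusted p = 1.34e-08). Scarna3a had 2, 6 and 2 counts at 0 h and 14, 18 and 20 at 96 h, a log2 fold change of 2.65 ± 0.55 (edgeR adjusted p = 0.000958). Scarna2 had 8, 9 and 3 counts at 0 h and 17, 17 and 12 at 96 h, a log2 fold change of 1.51 ± 0.52 (edgeR adjusted p = 0.0234). The Scarna2 call rested on few counts: its adjusted p was 0.0778 without 0 h replicate 3, 0.102 without 96 h replicate 1 and 0.0738 without 96 h replicate 2. Scarna8 had 0 counts at 0 h and 3, 10 and 3 at 96 h. Taking 3 counts over the 0 h group as the floor gave a ratio of 6.60, with no allowance for counting error at 96 h. The lower limit of the 95% interval for its ratio was 4.77.

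Snora74a, a member of the U19 family, had the highest mean CPM of any Snora. Its level was 8.26, 8.47 and 11.5 CPM at 0 h and 89.1, 86.6 and 71.4 CPM at 96 h, a log2 fold change of 3.13 ± 0.12 (edgeR adjusted p = 1.35e-10, the smallest among members). Per kilobase of length, its mean level was 48.0 CPM at 0 h and 420 CPM at 96 h, beside 146 and 301 CPM for Scarna13. The order at 96 h depends on that division. Undivided means at 96 h were 82.4 CPM for Snora74a and 82.8 CPM for Scarna13.

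Snora73a and Snora73b, also called U17 or E1, act in the cleavage of the pre-ribosomal RNA that yields 18S rRNA rather than as pseudouridine guides. Snora73a stood at 4.18, 6.69 and 8.52 CPM at 0 h and 33.2, 42.3 and 29.0 CPM at 96 h, and Snora73b at 4.24, 7.58 and 6.37 CPM and 30.1, 32.4 and 26.9 CPM. Both rose, by 2.43 and 2.28 on the log2 scale. Reads were divided between the 2 near-identical rows, with Snora73a taking 46.9% to 57.2% of their sum. That sum does not depend on the division, and it was 163, 335 and 285 counts at 0 h and 950, 1278 and 1003 counts at 96 h.

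Snora16a rose from 3.62, 4.30 and 6.22 CPM to 32.6, 44.4 and 36.1 CPM, a log2 fold change of 3.01 ± 0.16 (edgeR adjusted p = 3.48e-09). Snora9 rose from 5.78, 7.45 and 8.41 CPM to 31.1, 37.5 and 30.9 CPM, a log2 fold change of 2.20. Snora21 rose from 1.55, 3.96 and 3.19 CPM to 26.1, 26.4 and 24.9 CPM, with SDs of 1.23 and 0.756 CPM. Snora24, which guides pseudouridylation of 18S rRNA, rose from 2.65, 4.07 and 3.83 CPM to 24.3, 27.9 and 22.2 CPM. Snora52 rose from 1.76, 2.13 and 3.08 CPM to 11.3, 11.3 and 10.5 CPM. In all 5 the lowest 96 h library was more than 3-fold above the highest 0 h library, and 0 h replicate 1 was the lowest of its group.

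The largest fold changes belonged to RNAs near the limit of detection at 0 h. Snora33 had 0, 4.23 and 0 counts at 0 h and 22.5, 34.2 and 53.3 at 96 h, a log2 fold change of 4.95 ± 0.71 (edgeR adjusted p = 4.53e-05). The ratio of its depth-scaled counts was 34.0, with a 95% interval of 12.9 to 127 that covers counting error only. Snora26 had 2.87, 7.39 and 6.87 counts and then 63.9, 83.4 and 60.3, a log2 fold change of 3.89. Snora44 had 3, 3 and 9 counts and then 51, 76 and 57, a log2 fold change of 3.87. Snora15 (3.68), Snora5c (3.56) and Snora62 (3.21) had no 0 h library above 10 counts. These 6 all entered the test through their 96 h libraries.

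The other tested Snora RNAs rose by 2.20 (Snora64) to 3.05 (Snora17) on the log2 scale, with Snora17 at 0.930, 1.40 and 1.25 CPM at 0 h and 8.19, 12.6 and 9.24 CPM at 96 h.

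Among the 18 members with counts that were not tested, the groups did not overlap in 11. Of all 12789 rows with counts that were not tested, many with fewer counts than these, 10.5% had no overlap with higher levels at 96 h. Snora57 had 16.6 counts, all in 96 h replicate 3. Snora31 had 0, 1 and 0 counts at 0 h and 9, 11 and 6 at 96 h, a ratio of 32.2 with a 95% interval of 5.29 to 1319. Snora3 had 0, 2 and 2 counts and then 13, 6 and 17. These values came from so few counts that no order among them can be read.

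Length was set beside the size of the rise. Over the 27 tested members, Spearman's rho between log2 fold change and length was -0.49, a description over genes that share the same 6 libraries. Over the 16 members with at least 10 counts in each 0 h library it was -0.29. The 8 RNAs of at least 170 bases had a median log2 fold change of 2.35 and the 19 shorter ones 2.82, a split chosen after the values were seen. The longer ones included Scarna2, Scarna6 and Scarna13, and rho with mean level was -0.25.

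C/D box snoRNAs, which guide ribose methylation, are the class most like these RNAs. Of 106 Snord rows, 52 were tested, 50 rose and 0 fell, with a median log2 fold change of 2.03, against 28.7% of all genes called higher. The filter bears on this count too: 39 of the 52 had at least 10 counts in each 0 h library, of which 38 rose, with a median of 1.96. Their sum was 420, 549 and 624 CPM at 0 h and 2252, 2723 and 1995 CPM at 96 h (4.38-fold). The ratio of Snora to Snord counts was 0.0933, 0.0994 and 0.0976 at 0 h and 0.151, 0.142 and 0.159 at 96 h. The ratios did not overlap between times, with p = 0.1 in an exact two-sided permutation test, again the smallest p possible here.

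Tested members with a tested host gene rose more than that host. A host was the smallest containing gene on the same strand in GENCODE M21 whose symbol is also a row of the deposited counts. Such a host was found for 43 of 49 members (39 hosts). It was protein coding for 33 of them, and a ribosomal protein gene for 11 of these. The other members may have hosts that this rule missed. Of these 43, 21 lay wholly in introns and 22 overlapped an exon of some host transcript, mostly transcripts that retain the intron. In both sets, reads of the small RNA and of an unspliced host cannot be separated. In 22 tested pairs on 19 hosts, limma on log2 member level minus log2 host level (prior count 2) found that the member rose more than its host in 22 of 22, with differences from 0.95 to 4.28, a median of 2.35 and a largest adjusted p of 0.0178 over all 61 small RNA and host pairs. In all 61 pairs, C/D box pairs included, 91.8% were called in this direction. Of the 19 hosts, 6 were higher, 6 lower and 7 did not pass, with a median log2 fold change of -0.04. Snora78, whose host Snhg9 was not tested, formed no pair. Nor did the 4 tested members for which the host rule found none (Scarna2, Snora17, Snora43 and Snora74a). In the 12 pairs whose member had at least 10 counts in each 0 h library, 12 of 12 members rose more, by at least 1.62.

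**Figure D3:**
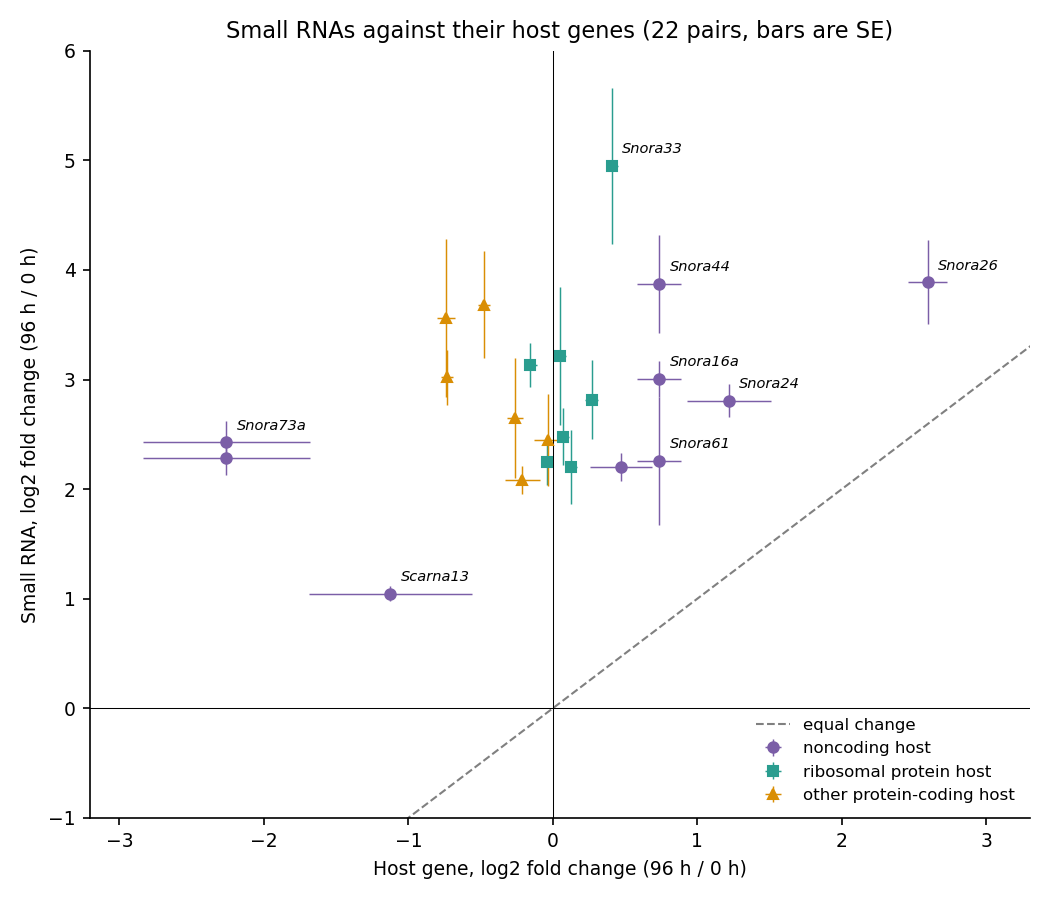
Log2 fold change of each of 22 small RNAs (vertical axis) against that of its host gene (horizontal axis), with SE bars and the kind of host by colour and marker. Points on the dashed line would change equally with their host; all 22 lie above it, with Snora26 closest and Snora73a among the farthest.

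Snhg3, the noncoding host of Snora73a and Snora73b, fell from 0.620, 1.49 and 2.30 CPM to 0.466, 0.175 and 0.278 CPM (log2 fold change -2.26 ± 0.58, edgeR adjusted p = 0.00436). At these low levels the size of its fall rests on few counts. The 2 RNAs encoded in Snhg3 rose, giving limma differences of 4.28 ± 0.40 and 4.14 ± 0.40. With the prior count of 2 these were the largest among members. Snhg10, the host of Scarna13, had a log2 fold change of -1.13 ± 0.56 that did not pass (edgeR adjusted p = 0.105), and Scarna13 rose more than it by 2.004 ± 0.398. Dancr was the host that rose most, from 3.36, 4.28 and 4.29 CPM to 20.7, 25.2 and 26.3 CPM (log2 fold change 2.59 ± 0.14). Snora26 inside it rose more by only 0.95 ± 0.37 (limma adjusted p = 0.0178), and this did not pass without 96 h replicate 1 (0.82, limma adjusted p = 0.0971).

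Snhg12 holds 3 tested members and rose by 0.74 ± 0.15. The differences from it were 2.78 ± 0.38 for Snora44, 2.27 ± 0.36 for Snora16a and 1.20 ± 0.42 for Snora61. Whether the 3 members differed from each other was not tested. The Snora61 difference did not pass without 0 h replicate 3 (0.66, limma adjusted p = 0.12) or without 96 h replicate 2 (0.98, limma adjusted p = 0.0611).

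Hosts that encode ribosomal proteins stayed close to their 0 h level: 3 of 7 rose, 1 fell and their log2 fold changes ran from -0.15 (Rpl23) to 0.41 (Rps12), while the 7 Snora RNAs inside them rose by 2.20 to 4.95. Rps12, with Snora33, went from 274, 271 and 267 CPM to 351, 361 and 365 CPM. Among the 6 other protein-coding hosts, 4 fell, 0 rose and 2 did not pass. Ipo7, the nuclear import receptor importin 7, fell from 322, 322 and 313 CPM to 193, 191 and 191 CPM, while Snora23 in its intron rose from 0.930, 0.639 and 0.836 CPM to 6.86, 6.78 and 5.85 CPM. That difference was 3.60 ± 0.36 (limma adjusted p = 3.53e-09). For Cop1, Scarna3a rose more by 2.43, and for Atg16l1, Scarna6 rose more by 2.28. Among C/D box RNAs, 34 of 39 pairs were called in the same direction, with a median of 1.89 and examples in Snord50b, Snord17 and Snord22 (7.58, 3.11 and 2.61).

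Genes for proteins of H/ACA particles, their assembly, Cajal bodies and RNA ends were counted in the same edgeR test, in which 28.8% of all genes were called lower and 28.7% higher. Of 28 such genes, without the telomerase RNA, 17 fell, 2 rose and 9 did not pass, with a median log2 fold change of -0.28. The list includes 8 genes of the SMN complex, which assembles spliceosomal particles; without them, a split made after the values were seen, 11 of 20 fell, 2 rose and 7 did not pass. Among the core proteins, dyskerin (Dkc1), the pseudouridine synthase itself, fell from 53.6, 61.4 and 57.8 CPM to 36.2, 29.2 and 36.7 CPM (log2 fold change -0.76 ± 0.09). Nhp2 fell by 0.69 and Gar1 by 0.43, and Nop10 did not pass at -0.09 ± 0.11. With libraries scaled by size only Nop10 was called lower (-0.33, edgeR adjusted p = 0.0241). Of the 7 assembly genes, 3 fell and 4 did not pass. Among the 4 were Naf1 (-0.15), which escorts the immature particle, and Shq1, the dyskerin chaperone (0.07, or -0.19 with libraries scaled by size only). With that scaling Naf1 was called lower (-0.41, edgeR adjusted p = 0.00164). The ATPase gene Ruvbl1 fell by 0.40.

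**Figure D4:**
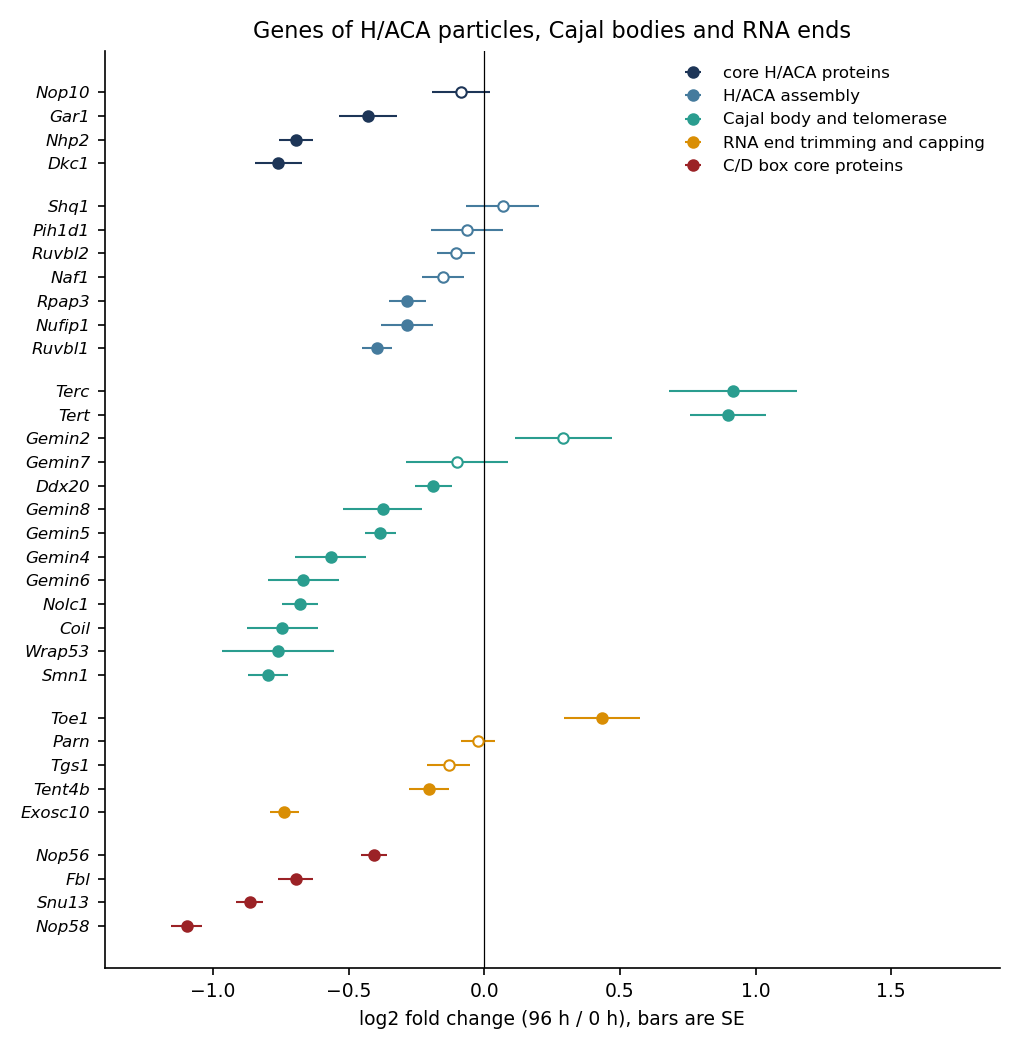
Log2 fold change (96 h over 0 h) with SE bars for 33 genes of H/ACA particles, Cajal bodies, RNA ends and C/D box particles. Filled points passed an edgeR adjusted p of 0.05 and open points did not. Most filled points lie left of 0, and Terc, Tert and Toe1 lie right of it.

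Most genes on the Cajal body and telomerase list fell. Coil, the scaffold coilin, fell by 0.74, Wrap53, which binds the signal that keeps RNAs in Cajal bodies, by 0.76, Smn1 by 0.80 and Nolc1, a chaperone of both snoRNA classes, by 0.68. The telomerase gene Tert rose by 0.90 ± 0.14. Terc, the telomerase RNA with its own H/ACA domain, rose by 0.92 ± 0.24. Its level went from 3.15, 2.09 and 3.29 CPM to 6.26, 4.85 and 4.96 CPM. Of the 13 genes on this list 9 fell, 2 rose and 2 did not pass. Among RNA end genes, Exosc10 of the nuclear exosome fell by 0.74 and Toe1, a Cajal body deadenylase, rose by 0.43. Parn, which trims H/ACA tails, did not pass at -0.02 ± 0.06 (0.06 with upper-quartile scaling). With libraries scaled by size only Parn was called lower (-0.27, edgeR adjusted p = 0.00716). Toe1 did not pass with libraries scaled by size only (0.18, edgeR adjusted p = 0.277), with DESeq2 (0.40, adjusted p = 0.0524), without 0 h replicate 1 (0.35, edgeR adjusted p = 0.0667) or without 96 h replicate 1 (0.31, edgeR adjusted p = 0.092).

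The 4 C/D box core proteins all fell: Nop58 by 1.10, Snu13 by 0.87, Fbl, the methyltransferase fibrillarin, by 0.70 and Nop56 by 0.41. Of 12 pseudouridine synthases that need no guide RNA, 3 rose, 5 fell and 4 did not pass, shares near those over all genes (28.7% higher, 57.4% in either direction). Trub1 rose from 4.44, 5.75 and 8.20 CPM to 19.4, 16.6 and 18.7 CPM (log2 fold change 1.57 ± 0.18). Pusl1, of mitochondria, rose by 0.58 and Trub2, also of mitochondria, by 0.34. With libraries scaled by size only neither passed (0.33 and 0.09, edgeR adjusted p = 0.0618 and 0.596). The Trub2 call was lost when any 1 library other than 96 h replicate 2 was left out, with adjusted p from 0.0529 to 0.238 in edgeR.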

How the data were processed

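Total RNA was depleted of ribosomal RNA and sequenced as paired ends from a stranded low-input kit (SMARTer Stranded Total RNA-Seq Pico v2, Singular G4), per the labels' protocols. The authors deposited estimated counts for 40413 genes in 6 libraries, not scaled to depth. FastQC 0.12.1, Salmon 1.10.1, DESeq2 1.52.0 and the build mm39 are named, per the submitters' processing notes; what each did, the annotation and the strand setting are not stated there or in the labels. Short RNAs, near-identical copies and overlapping hosts make such estimates uncertain, and 11 of 49 members had fractional counts (tolerance 0.001).

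Counts were rounded and tested with edgeR 4.0.16 (R 4.3.3; filterByExpr, TMM, quasi-likelihood F test, adjusted p threshold 0.05 over all genes; SE is the log2 fold change over the square root of F). Small RNA and host differences used limma 3.58.1. Scripts were tested on simulated data. Hosts, biotypes, lengths and sequences came from GENCODE M21 (GRCm38), an earlier build, matched by symbol with no coordinates; a host that RefSeq (GRCm38.p6) lists as protein coding counted as coding, which moved Cct6a. Intervals and floors (3 counts over a group) cover counting error only.

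Members and gene lists were chosen with earlier results of these data known. The text names the 10 members with the highest mean CPM, the 8 with the largest rise, every tested Scarna, the core and main accessory protein genes and the 3 host pairs per class with the smallest adjusted p. Phox2a, Mycn, Chga, Prph, Smn1, Ruvbl1, Snu13, Exosc10, Toe1, Trub1, Pusl1, Trub2, the hosts beside these pairs, Snora61, and the untested members named were chosen after their values were seen. Genes named only for a changed call or sign were chosen so too. Alternatives were other scalings and filters, limma-voom, DESeq2 1.42.0 (Wald test), a threshold of 0.01, a host prior count of 0.5, a replicate block and leaving out each library.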

Additional observations from a re-analysis of the deposited data

How the results depend on the processing

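All 27 tested members stayed higher at 96 h in every alternative run, and their calls held in 399 of 405 values; the 6 exceptions were all Scarna2, with log2 fold changes from 1.20 to 1.51 there. Members called higher numbered 26 with libraries scaled by size only and at an adjusted p of 0.01, 34 with no filter, 33 with DESeq2, and 27 to 33 when 1 library was left out; 0 were called lower in any of these, DESeq2 included, and 0 were lower in edgeR at an unadjusted p under 0.05. Restricting to members with at least 10 counts in each 0 h library left 16 called higher and 12 host pairs, because fewer members entered, and to rows with whole counts left 19 of 19; these restrictions were added after the data were seen. The median log2 fold change ran from 2.52 to 2.93. The median over all genes was 0.03 with TMM and -0.22 with libraries scaled by size only. The 3.92-fold difference in the member share was 5.08-fold with protein-coding counts as the denominator, 5.45-fold without Scarna13, and 3.73 to 4.11 when 1 library was left out.

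Host pair calls held in 173 of 176 values, the exceptions being Snora26 and Snora61, with values given beside those RNAs. Of the 28 protein genes, 17 were lower with TMM scaling, 22 with libraries scaled by size only, and 13 to 16 when 1 library was left out, and 11 without the SMN complex genes, because fewer genes entered; 2 were higher, but 1 with libraries scaled by size only, 1 with DESeq2, and 1 to 2 when 1 library was left out. Over 45 protein and synthase genes, 612 of 675 values kept their direction and call, 41 lost the call, 7 gained it and 15 changed sign. The gains were lower calls with libraries scaled by size only (Nop10, Naf1, Ruvbl2, Parn, Tgs1 and Rpusd2). Naf1 was also called lower without 0 h replicate 3 (-0.21, edgeR adjusted p = 0.0406). Every sign change was in a gene that did not pass: with libraries scaled by size only Shq1 (-0.19) and Rpusd4 (-0.18); with upper-quartile scaling Pih1d1 (0.018), Parn (0.058), Rpusd1 (0.033) and Rpusd3 (0.075); with scaling by protein-coding genes Parn (0.012) and Rpusd3 (0.029). When 1 library was left out, Shq1 ran from -0.015 to 0.17, Pih1d1 from -0.18 to 0.054, Rpusd1 from -0.13 to 0.059, Rpusd3 from -0.11 to 0.12 and Rpusd4 from -0.0054 to 0.11. The cause was not tested.

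Same-numbered libraries of the 2 groups did not deviate together (correlations from -0.014 to 0.014). With 3 libraries per group, this cannot show whether same-numbered libraries were set up together. With a replicate block, 27 members, 50 C/D box RNAs and 22 host pairs were called higher, and 17 protein genes lower and 2 higher. Few counts at 0 h limit the fold changes of the 11 members that did not reach 10 counts in every 0 h library.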
